A study of Cavia porcellus with 10 samples.

Results

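The receptors for steroid hormones, 2 membrane-associated progesterone receptor components and 2 immunophilins that bind receptor complexes were followed in the uterine cervix of the guinea pig before and during pregnancy. They were selected by gene name as ESR1, ESR2, PGR, NR3C1, NR3C2, PGRMC1, PGRMC2, FKBP4 and FKBP5. Of these 9 names, 7 matched a gene name among the 25028 Ensembl genes of the deposited table. NR3C1 was read from the entry GCR_CAVPO, the protein database name of the guinea pig glucocorticoid receptor, which brings the genes with values to 8. ESR2 was not analysed here. All 8 passed the filter on low values, which asked for a stage mean of 3 TPM or more at any of the 3 stages. TPM, the share of a transcript among all transcripts of a library after correction for its length, is the unit of level used throughout.

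RNA was sequenced from the vaginal end of the cervix of female guinea pigs of the Hartley strain, 1 library per animal. The 3 non-pregnant animals (NP) were in estrus. The labels put the 3 mid-term animals (MT) at 43.6 ± 0.5 days and the 4 late-term animals (LT) at 65.2 ± 1.2 days of gestation, and the LT animals were not in labor. These ages are estimates for a whole group, made from fetal measurements after death, and for LT replicate 4 the sources used here list no such measurement. The sources name no transgene and no treatment, and each animal was killed at a single time point, so that stages are compared between animals and not within an animal.

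Steroid receptors are transcription factors that are switched on by their hormone. Without hormone they are held by the heat shock protein HSP90 and its partners, among them the immunophilins FKBP4 (FKBP52) and FKBP5 (FKBP51), which compete for the same docking site. FKBP4 favors hormone binding by the progesterone and glucocorticoid receptors, whereas FKBP5 dampens it and is itself a target gene of these receptors. In the reproductive tract PGR is a classical target gene of ESR1. PGRMC1 and PGRMC2 are small heme-binding membrane proteins that are not related to the nuclear receptors.

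Each NP library held 20047660 to 27351763 counted reads, each MT library 18730665 to 25380420 and each LT library 25804572 to 27881572. Even the least abundant gene of the group, NR3C2, rested on 150 to 385 reads per animal, and every other one on at least 574. Stages were compared with limma on log2(TPM + 1) over 12645 genes, and adjusted p-values are from that fit unless another tool is named. Because TPM values are shares of a library, a second reading with edgeR on the read counts is given for the members wherever it changes a call, and for the other gene lists as counts of calls. On TPM, the middle gene of all those tested had a log2 fold change of -0.14 between NP and MT, -0.16 between MT and LT and -0.28 between NP and LT. With edgeR these medians were -0.03, 0.00 and -0.01. The tissue carried the markers of cervical stroma, smooth muscle and epithelium, and NP replicate 1 stood apart from the other NP animals. Its summed TPM was 3255 for 6 squamous epithelial markers against 1053 and 1067 in the other NP animals, and 21878 for 8 smooth muscle markers against 7713 and 8987. The sum was also higher for 7 stromal markers, at 10926 against 6229 and 6741, and lower for 9 leukocyte markers, at 152 against 291 and 368. For the 7 stromal markers the mean of log2(TPM + 1) did not stand apart, at 8.1 against 8.1 and 8.19.

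Between NP and MT the progesterone receptor and FKBP5 rose, and no fall of a member passed the test. Between MT and LT the progesterone and glucocorticoid receptors fell, together with PGRMC1 on TPM, and no rise of a member passed the test. From NP to LT, ESR1 and the glucocorticoid receptor fell on TPM and on counts alike, while FKBP5 rose 3.99-fold to a mean near that of FKBP4.

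These counts have to be read against the many genes that changed between stages. From NP to MT 2 of 8 members were called, both higher, where 18.5% of all tested genes were called, 6.27% higher and 12.2% lower. From MT to LT 3 of 8 were called, all lower, against 29.4% of tested genes, 6.73% higher and 22.7% lower. From NP to LT 5 of 8 were called, 1 higher and 4 lower, against 53.1% of tested genes, 11.2% higher and 41.9% lower. The 4 of 8 called lower in that last comparison are a share close to that of all genes. With edgeR 2 members were called higher from NP to MT, where 18.0% of tested genes were called (10.1% higher and 7.98% lower). From MT to LT 2 were called lower, where 29.0% of genes were called (13.4% higher and 15.6% lower). From NP to LT 3 were called higher and 2 lower, where 49.4% of genes were called (23.6% higher and 25.8% lower). In numbers, limma on TPM called 793 genes higher and 1549 lower from NP to MT, 851 and 2872 from MT to LT, and 1417 and 5301 from NP to LT, and edgeR called 1271 and 1009, 1696 and 1971, and 2990 and 3257. The animals of the compared stages did not overlap for 2 of 8 members from NP to MT (34.9% of tested genes), for 5 of 8 from MT to LT (46.3%) and for 5 of 8 from NP to LT (52.4%). Over the 3 stages, the exact permutation test of the F statistic on square-root TPM gave a p under 0.05 for 6 of the 8 members, against 58.4% of the tested genes. That number, by alternatives added after the values were seen, was 5 after median-ratio scaling and 4 without any one of LT replicates 1, 2, 3 and 4.

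**Figure D1:**
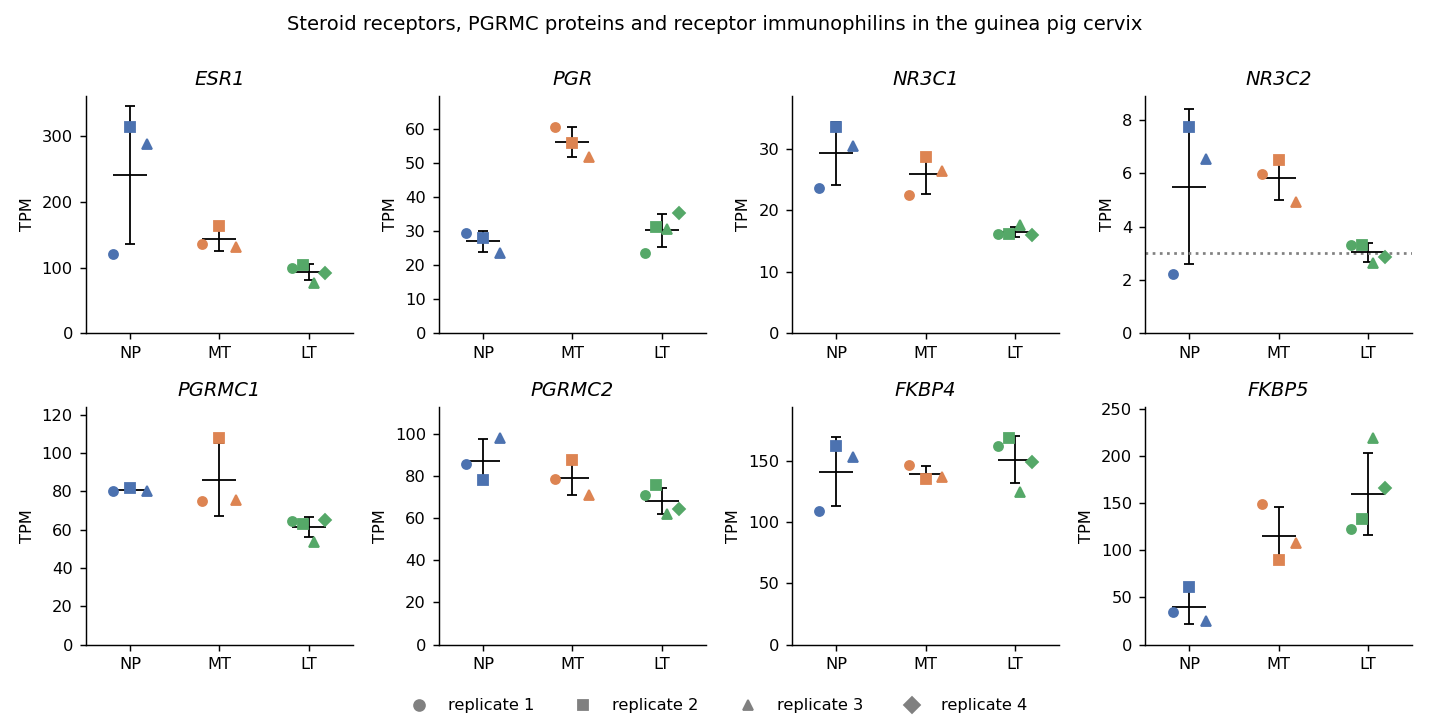
TPM of the 8 members in each animal at the NP, MT and LT stages (1 panel per gene, linear axis in TPM). Each point is 1 animal, its shape gives the replicate number, and the black bar with whiskers is the mean ± SD. PGR peaks in MT at 51.8 to 60.6 TPM, ESR1 runs from 242 TPM in NP to 93.1 TPM in LT, and FKBP5 from 40.1 to 160.2 TPM.

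ESR1 (ENSCPOG00000008317) encodes the estrogen receptor alpha. It had 121, 315 and 289 TPM in the NP animals, 136, 163 and 131 TPM in the MT animals, and 99.9, 104, 76.7 and 92.3 TPM in the LT animals. The LT animals all lay below the NP and MT animals, while NP replicate 1, at 121 TPM, lay below every MT animal. The NP, MT and LT means were 242 ± 105 (SD, n = 3), 144 ± 17.2 (SD, n = 3) and 93.1 ± 11.9 TPM (SD, n = 4), and the exact permutation F test over the 3 stages gave p = 0.0224. ESR1 fell by 1.26 on the log2 scale from NP to LT (SE 0.28, adjusted p = 0.00473), and by 1.05 with edgeR (adjusted p = 0.00567). Neither step of that decline passed on its own in the fit of all 3 stages. The first was -0.64 (NP to MT, SE 0.30, adjusted p = 0.166) and the second -0.62 (MT to LT, SE 0.28, adjusted p = 0.122). In a fit of MT and LT alone the second step, again -0.62, was called (adjusted p = 0.00868). The exact permutation test of MT against LT on square-root TPM gave p = 0.0286, its lowest possible value. Without NP replicate 1 the log2 fold changes were -1.07 (adjusted p = 0.00175), -0.62 (adjusted p = 0.00449) and -1.69 from NP to LT (adjusted p = 6.97e-05). Leaving out NP replicate 2 instead brought the NP to MT value to -0.39 (adjusted p = 0.452), and without MT replicate 2 the MT to LT value was -0.53 (adjusted p = 0.303). In bulk tissue, fewer cells that carry a transcript and less of it per cell cannot be told apart, for this and for every gene below.

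PGR (ENSCPOG00000020113), the nuclear progesterone receptor, followed a different course. Its values were 29.5, 27.8 and 23.5 TPM in NP, 60.6, 55.7 and 51.8 TPM in MT, and 23.5, 31.3, 30.5 and 35.3 TPM in LT. Every MT animal lay above every other animal, and the NP and LT animals overlapped. The NP, MT and LT means were 26.9 ± 3.11 (SD, n = 3), 56.1 ± 4.41 (SD, n = 3) and 30.1 ± 4.92 TPM (SD, n = 4) (exact permutation F test, p = 0.00524). PGR rose from NP to MT by 1.04 on the log2 scale (SE 0.15, adjusted p = 0.00191) and fell from MT to LT by 0.89 (SE 0.14, adjusted p = 0.00315). Both calls held under all 19 alternative settings, with adjusted p-values of at most 0.0102 and 0.0179. Whether PGR ends pregnancy above its estrus level depends on the scale. From NP to LT it moved by 0.15 on the log2 scale of TPM (SE 0.14, adjusted p = 0.378), 0.43 after median-ratio scaling (adjusted p = 0.0472), 0.45 with edgeR (adjusted p = 0.0473) and 0.45 with DESeq2 (adjusted p = 0.0287).

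The glucocorticoid receptor NR3C1 (ENSCPOG00000005188) was at 23.6, 33.6 and 30.5 TPM in NP, at 22.4, 28.7 and 26.4 TPM in MT, and at 16.1, 16.2, 17.6 and 16.0 TPM in LT. NP and MT overlapped, and all LT animals lay below both within a narrow band. The means were 29.2 ± 5.09 TPM (SD, n = 3), 25.8 ± 3.19 TPM (SD, n = 3) and 16.5 ± 0.722 TPM (SD, n = 4), and the exact permutation F test gave p = 0.00429. NR3C1 fell by 0.61 on the log2 scale from MT to LT (SE 0.13, adjusted p = 0.00856) and by 0.78 from NP to LT (SE 0.13, adjusted p = 0.00095). With edgeR it fell by 0.47 (adjusted p = 0.0104) and by 0.52 (adjusted p = 0.00303). The step from NP to MT, at -0.17, did not pass (adjusted p = 0.411).

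NR3C2 (ENSCPOG00000007770), the mineralocorticoid receptor, was the least abundant member at each stage. It had 2.21, 7.75 and 6.52 TPM in NP, 5.98, 6.51 and 4.94 TPM in MT, and 3.32, 3.32, 2.63 and 2.85 TPM in LT. All LT values lay under all MT values, whereas NP replicate 1 had less than any other animal. The means were 5.49 ± 2.91 TPM (SD, n = 3), 5.81 ± 0.798 TPM (SD, n = 3) and 3.03 ± 0.346 TPM (SD, n = 4) (exact permutation F test, p = 0.139). No comparison passed in the fit of all 3 stages or with edgeR. On the log2 scale NR3C2 differed by -0.75 between MT and LT (SE 0.30, adjusted p = 0.0843), by -0.57 between NP and LT (adjusted p = 0.138) and by 0.19 between NP and MT (adjusted p = 0.711). The MT to LT difference was called by DESeq2 (-0.77, adjusted p = 0.0493) and in a fit of MT and LT alone (-0.75, adjusted p = 0.00586). The exact permutation test of MT against LT on square-root TPM gave p = 0.0286, its lowest possible value. Without NP replicate 1 the MT to LT and NP to LT differences were -0.75 (adjusted p = 0.00336) and -1.01 (adjusted p = 0.000573). Leaving out NP replicate 2 instead brought the NP to LT difference to -0.29 (adjusted p = 0.464), and without MT replicate 2 the MT to LT difference was -0.68 (adjusted p = 0.221). NP replicate 1 was also the lowest NP animal for ESR1, NR3C1 and FKBP4. The part that its cell type markers had in this was not tested.

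For the membrane-associated components, calls on TPM were lost on counts. PGRMC1 (ENSCPOG00000012353) had 80.3, 81.6 and 80.0 TPM in NP, 75.1, 108 and 75.4 TPM in MT, and 64.3, 62.9, 53.7 and 64.9 TPM in LT. The NP animals were almost identical, and the LT animals all lay below the others. The means were 80.6 ± 0.848 TPM (SD, n = 3), 86.3 ± 19.2 TPM (SD, n = 3) and 61.5 ± 5.22 TPM (SD, n = 4). PGRMC1 fell on TPM from MT to LT by 0.47 on the log2 scale (SE 0.13, adjusted p = 0.0251) and from NP to LT by 0.39 (SE 0.13, adjusted p = 0.0292). Neither call held with edgeR, where the log2 fold changes were -0.32 (adjusted p = 0.109) and -0.10 (adjusted p = 0.562). The first was also lost without MT replicate 2 (log2 fold change -0.29, adjusted p = 0.0717) or LT replicate 3 (adjusted p = 0.0681), and the second without NP replicate 2 (0.0796), NP replicate 3 (0.066), LT replicate 2 (0.0508) or LT replicate 3 (0.0763).

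PGRMC2 (ENSCPOG00000027001) had 85.5, 78.1 and 98.1 TPM in NP, 78.6, 87.6 and 71.1 TPM in MT, and 71.0, 75.6, 62.1 and 64.5 TPM in LT. Each stage overlapped the next, and only NP and LT were apart. The means were 87.2 ± 10.1 TPM (SD, n = 3), 79.1 ± 8.28 TPM (SD, n = 3) and 68.3 ± 6.16 TPM (SD, n = 4). NP and LT differed by -0.35 on the log2 scale of TPM (SE 0.11, adjusted p = 0.0238), close to the median of all genes, and -0.07 with edgeR (adjusted p = 0.654). The TPM call was lost without NP replicate 3 (adjusted p = 0.0982), LT replicate 3 (0.0637) or LT replicate 4 (0.0578). The exact permutation F test gave p = 0.01 for PGRMC1 and p = 0.0476 for PGRMC2 on TPM, and p = 0.119 and p = 0.849 after median-ratio scaling.

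FKBP5 (ENSCPOG00000000520) had the largest log2 fold changes of the 8 genes from NP to MT and from NP to LT. Its values were 34.9, 61.0 and 24.5 TPM in NP, 149, 90.0 and 108 TPM in MT, and 123, 133, 219.6 and 166 TPM in LT. The NP animals were all below the MT and LT animals, and MT and LT overlapped. The stage means were 40.1 ± 18.8 (SD, n = 3), 115 ± 30.3 (SD, n = 3) and 160.2 ± 43.7 TPM (SD, n = 4) (exact permutation F test, p = 0.00333). FKBP5 rose by 1.57 on the log2 scale from NP to MT (SE 0.33, adjusted p = 0.0108) and by 2.03 from NP to LT (SE 0.31, adjusted p = 0.000605). Both calls held under all 19 alternatives, with adjusted p-values up to 0.044 and 0.00839. The further step of 0.46 between MT and LT did not pass (SE 0.31, adjusted p = 0.27).

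FKBP4 (ENSCPOG00000002453), its counterpart, had 109, 162 and 153 TPM in NP, 147, 135 and 137 TPM in MT, and 162, 169, 125 and 149 TPM in LT. All 3 stages overlapped. The means were 142 ± 28.2 TPM (SD, n = 3), 139 ± 6.38 TPM (SD, n = 3) and 151 ± 19.5 TPM (SD, n = 4) (exact permutation F test, p = 0.739, and p = 0.0238 after median-ratio scaling). NP and LT differed by 0.10 on the log2 scale of TPM (SE 0.15, adjusted p = 0.569). Relative to the bulk of genes FKBP4 rose, by 0.40 with edgeR (adjusted p = 0.0157), by 0.40 after median-ratio scaling (adjusted p = 0.0149) and by 0.40 with DESeq2 (adjusted p = 0.00286). On TPM the value without NP replicate 1 was -0.07 (adjusted p = 0.621).

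**Figure D2:**
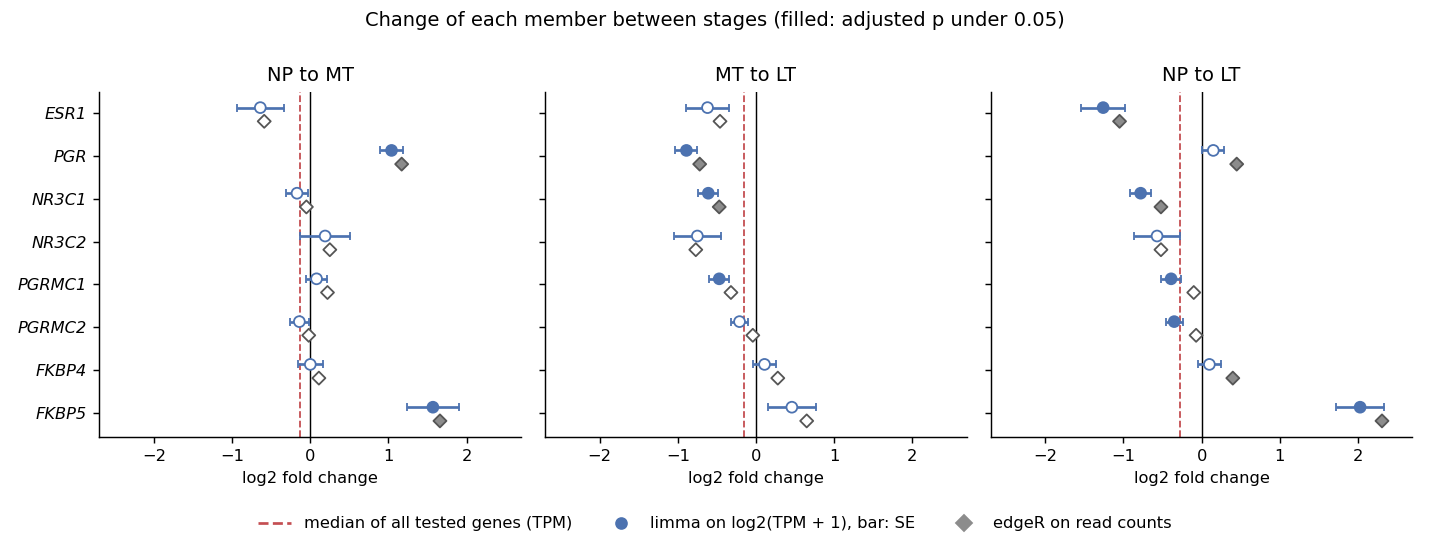
Log2 fold change of each member from NP to MT, from MT to LT and from NP to LT (1 panel per comparison, in log2 units). Circles with error bars are limma on log2(TPM + 1) with its SE, diamonds are edgeR on counts, filled symbols have an adjusted p under 0.05, and the dashed line is the median of all tested genes on TPM. FKBP5 lies farthest to the right from NP to LT at 2.03, ESR1 farthest to the left at -1.26, and in that comparison the limma and edgeR symbols of FKBP4, PGR, PGRMC1 and PGRMC2 differ in whether they are filled.

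The order of the members by mean TPM changed between stages. TPM is scaled by transcript length, so that levels of different genes can be set side by side within an animal. In NP the order was ESR1, FKBP4, PGRMC2, PGRMC1, FKBP5, NR3C1, PGR and NR3C2. ESR1 exceeded FKBP4 in 3 of 3 NP animals although their ranges overlapped. The ranges of PGRMC2 and PGRMC1, of FKBP5 and NR3C1, and of NR3C1 and PGR also overlapped, each pair being in that order in 2 of 3 animals. In MT the order was ESR1, FKBP4, FKBP5, PGRMC1, PGRMC2, PGR, NR3C1 and NR3C2. The ranges of each neighboring pair among the first 5 overlapped, and ESR1 was above FKBP4 in 1 of 3 animals, but ESR1 and FKBP4 both lay above PGRMC1 and PGRMC2, and FKBP5 above PGRMC2, in all MT animals without overlap. PGR, NR3C1 and NR3C2 followed without overlap. In LT, FKBP5 and FKBP4 came first and could not be ranked against each other (2 of 4 animals in that order). ESR1 was below both, and PGRMC2 and PGRMC1 followed, in that order in 3 of 4 animals. PGR, NR3C1 and NR3C2 came last without overlap.

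A ratio between genes of 1 animal is free of the scaling of the library. The ratio of PGR to ESR1 was 0.244, 0.0881 and 0.0813 in NP, 0.445, 0.342 and 0.395 in MT, and 0.235, 0.302, 0.397 and 0.383 in LT. Estrus animals had the least PGR per ESR1, apart from NP replicate 1, which lay just above LT replicate 1. The mean ratio was 0.138 ± 0.0918 (SD, n = 3) in NP, 0.394 ± 0.0519 (SD, n = 3) in MT and 0.329 ± 0.0753 (SD, n = 4) in LT, and the exact permutation F test on the log2 ratio gave p = 0.0214. That p was 0.0536 without LT replicate 2. Each MT ratio was above each NP ratio (3.25-fold in geometric mean), and the exact permutation test gave its lowest possible value of p = 0.1. The exact permutation test of NP against LT gave p = 0.0571, and that of MT against LT p = 0.286. The mean log2 ratio moved by -0.28 from MT to LT (-0.38 to -0.13 with 1 animal left out), where PGR on its own moved by -0.89 and ESR1 by -0.62.

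The ratio of PGR to NR3C1, which share a DNA recognition element, was 1.25, 0.827 and 0.768 in NP, 2.71, 1.94 and 1.97 in MT, and 1.46, 1.93, 1.74 and 2.21 in LT. Each pregnant animal had more PGR than NR3C1 and a higher ratio than each NP animal. The mean ratio was 0.948 ± 0.261 (SD, n = 3), 2.21 ± 0.437 (SD, n = 3) and 1.83 ± 0.315 (SD, n = 4) (exact permutation F test, p = 0.00429). The LT ratio was 1.96 times the NP ratio in geometric mean (p = 0.0286 by an exact permutation test, which can give no smaller p with 3 and 4 animals).

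The ratio of FKBP5 to FKBP4 was 0.319, 0.377 and 0.16 in NP, 1.02, 0.667 and 0.787 in MT, and 0.759, 0.785, 1.76 and 1.12 in LT. No NP animal reached the ratio of any pregnant animal, and LT replicate 3 had the highest. Its mean was 0.285 ± 0.112 (SD, n = 3), 0.823 ± 0.177 (SD, n = 3) and 1.11 ± 0.467 (SD, n = 4) (exact permutation F test, p = 0.00714). In geometric mean it was 3.03 times higher in MT than in NP (p = 0.1 by an exact permutation test, its lowest possible value here) and 3.88 times higher in LT than in NP (p = 0.0286, exact permutation test). For PGRMC1 to PGRMC2 the mean ratio was 0.933, 1.08 and 0.902 at the 3 stages, and a change was not detected (exact permutation F test, p = 0.151). These 4 ratios were the only ones computed, and their p-values are not adjusted.

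**Figure D3:**
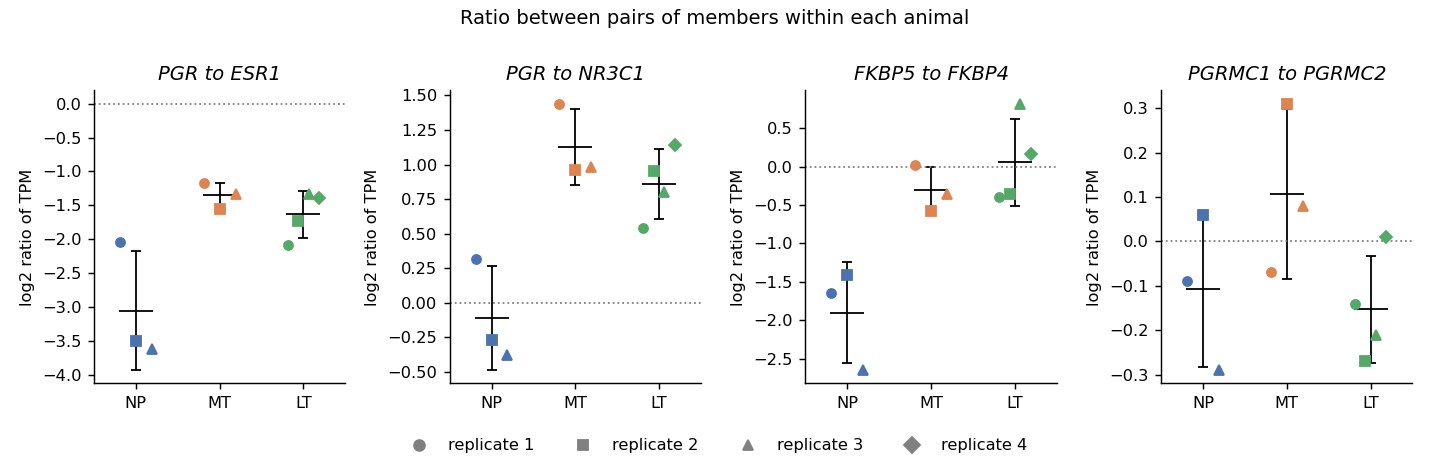
Log2 ratio of TPM between 4 pairs of members within each animal at the NP, MT and LT stages (1 panel per pair, log2 units, dotted line at equal levels). Points are animals with the shape giving the replicate, and the bar with whiskers is the mean ± SD of the log2 ratio. The pregnant animals lie above the NP animals for PGR to NR3C1 and for FKBP5 to FKBP4, NP replicate 1 overlaps LT for PGR to ESR1, and the 3 stages overlap for PGRMC1 to PGRMC2.

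Further receptors and binding partners for steroids were read from a list of 12 genes, of which 9 were tested. From NP to MT 1 rose and 0 fell, from MT to LT 0 rose and 1 fell, and from NP to LT 2 rose and 3 fell (with edgeR 2 and 0, 1 and 0, and 4 and 2). The 3 of 9 called lower from NP to LT are a smaller share than the 41.9% of all tested genes, and the 2 called higher a larger one than the 11.2% of all. PAQR5 rose first, PAQR6 fell after mid-term, and from NP to LT PAQR5 and SERBP1 rose while PAQR6, PAQR7 and PAQR8 fell. PAQR8 fell by 0.39 on the log2 scale from NP to LT (adjusted p = 0.0331). Neither its call (edgeR adjusted p = 0.452) nor that of PAQR6 from MT to LT (edgeR adjusted p = 0.0701) was given by edgeR. The call of PAQR8 was also lost without NP replicate 1 or 3 or any 1 LT animal (adjusted p from 0.0602 to 0.0797), that of PAQR6 without MT replicate 1 or 2 or LT replicate 4 (adjusted p from 0.0517 to 0.0674), and that of SERBP1 without NP replicate 1 (adjusted p = 0.106).

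The PAQR genes encode membrane progestin receptors, which answer to progesterone without entering the nucleus. PAQR5 (mPR gamma) had 2.5, 7.36 and 5.96 TPM in NP, 16.0, 11.2 and 14.1 TPM in MT, and 17.9, 14.1, 15.1 and 12.0 TPM in LT. All pregnant animals were above all NP animals. PAQR5 rose by 1.41 on the log2 scale between NP and LT (SE 0.27, adjusted p = 0.00212) and by 1.32 between NP and MT (SE 0.29, adjusted p = 0.0138), the latter call being lost without MT replicate 3 (adjusted p = 0.0521). PAQR7 (mPR alpha) had 115, 122 and 132 TPM in NP, 140.2, 78.0 and 18.4 TPM in MT, and 30.9, 33.5, 12.0 and 16.2 TPM in LT. Its MT animals spanned the whole range between the other stages. PAQR7 fell by 2.47 on the log2 scale from NP to LT (SE 0.59, adjusted p = 0.0059). PAQR6 (mPR delta) went from 13.1 ± 2.27 TPM in NP to 6.98 ± 0.862 TPM in LT and fell by 0.81 (SE 0.15, adjusted p = 0.00165).

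The HSP90 machinery that loads receptors was read from 18 genes, including the chaperones HSP90AA1 and HSP90AB1, the cochaperone PTGES3 (p23) and the other docking partners. On TPM 0 rose and 1 fell from NP to MT, 0 and 0 passed from MT to LT, and 0 rose and 1 fell from NP to LT. Of all tested genes 6.27%, 6.73% and 11.2% were called higher and 12.2%, 22.7% and 41.9% lower in the 3 comparisons. The gene called lower from NP to LT was ST13, an HSP70 cochaperone (log2 fold change -0.40, adjusted p = 0.0377, and 0.376 with edgeR). With edgeR 0 and 0, 5 higher and 0 lower, and 7 higher and 0 lower were called, where 13.4% of all tested genes were called higher from MT to LT and 23.6% from NP to LT. The 5 genes higher from MT to LT on counts were HSPA8, STIP1, PTGES3, PPID and UNC45A, and of these STIP1, which hands clients from HSP70 to HSP90, had an edgeR log2 fold change of 0.44 (adjusted p = 0.00682). The list's median log2 fold change was -0.11, 0.04 and -0.09 on TPM and 0.02, 0.22 and 0.21 with edgeR, where the median of all genes lay near 0. The stage means of HSP90AA1 were 892 ± 133 (SD, n = 3), 736 ± 31.2 (SD, n = 3) and 855 ± 146 TPM (SD, n = 4). UNC45A, a myosin and progesterone receptor cochaperone, was the gene called from NP to MT, at 104 TPM in NP and 77.8 TPM in MT (log2 fold change -0.41, SE 0.10, adjusted p = 0.021), a call that edgeR did not give (adjusted p = 0.165) and that was lost without MT replicate 3 (adjusted p = 0.0804).

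Coregulators carry the signal from the receptor to chromatin and the transcription machinery. Of 20 tested, 0 rose and 4 fell from NP to MT, 0 rose and 12 fell from MT to LT, and 0 rose and 18 fell from NP to LT. With edgeR these were 0 and 2, 2 and 11, and 0 and 13. Of all tested genes 12.2%, 22.7% and 41.9% were called lower in the 3 comparisons, and 7.98%, 15.6% and 25.8% with edgeR. Their median log2 fold change was -0.20, -0.48 and -0.66 on TPM and -0.08, -0.34 and -0.38 with edgeR, beside the medians of all genes given above. The 4 that fell first were NCOA4, HEXIM1, KDM1A and MED1, and the calls of NCOA4 and MED1 were lost with edgeR (adjusted p = 0.058 and 0.0817). The calls of KDM1A and MED1 from NP to MT were also lost when any animal but NP replicate 1 was left out (adjusted p from 0.0572 to 0.134). That of MED1 from MT to LT was lost with edgeR (adjusted p = 0.0855) and without MT replicate 2 or 3 or LT replicate 3 (adjusted p from 0.055 to 0.0641). Lost with edgeR from NP to LT were the calls of NCOA1, PELP1, NRIP1, CARM1 and HEXIM1 (adjusted p from 0.0711 to 0.619). The 2 called higher by edgeR from MT to LT were PHB2 and HEXIM1. DDX17, an RNA helicase that coactivates ESR1, had 232, 334 and 341 TPM in NP, 289, 226 and 187 TPM in MT, and 114, 122, 83.8 and 119.9 TPM in LT. The LT animals lay below all others. It fell by 1.08 from MT to LT (SE 0.19, adjusted p = 0.00476) and by 1.45 from NP to LT (SE 0.19, adjusted p = 0.000372). The histone acetyltransferases CREBBP and EP300, which nuclear receptors share, went from 35.8 ± 7.49 and 45.6 ± 6.57 TPM (SD, n = 3) in NP to 16.9 ± 1.63 and 22.2 ± 1.86 TPM (SD, n = 4) in LT. Both fell, by 1.03 (adjusted p = 0.000384) and by 1.00 (adjusted p = 0.000175). The corepressor SPEN fell as well, from 29.8 to 14.4 TPM (adjusted p = 0.000296), so that activators and repressors were both among the genes that fell. PPARGC1A, a coactivator of low abundance, averaged 3.88 ± 0.361 TPM at mid-term (SD, n = 3) and 1.13 ± 0.818 TPM at late term (SD, n = 4). It fell by 1.27 on the log2 scale (SE 0.32, adjusted p = 0.0164), a call lost without MT replicate 2 (adjusted p = 0.0583) or MT replicate 3 (adjusted p = 0.0515).

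**Figure D4:**
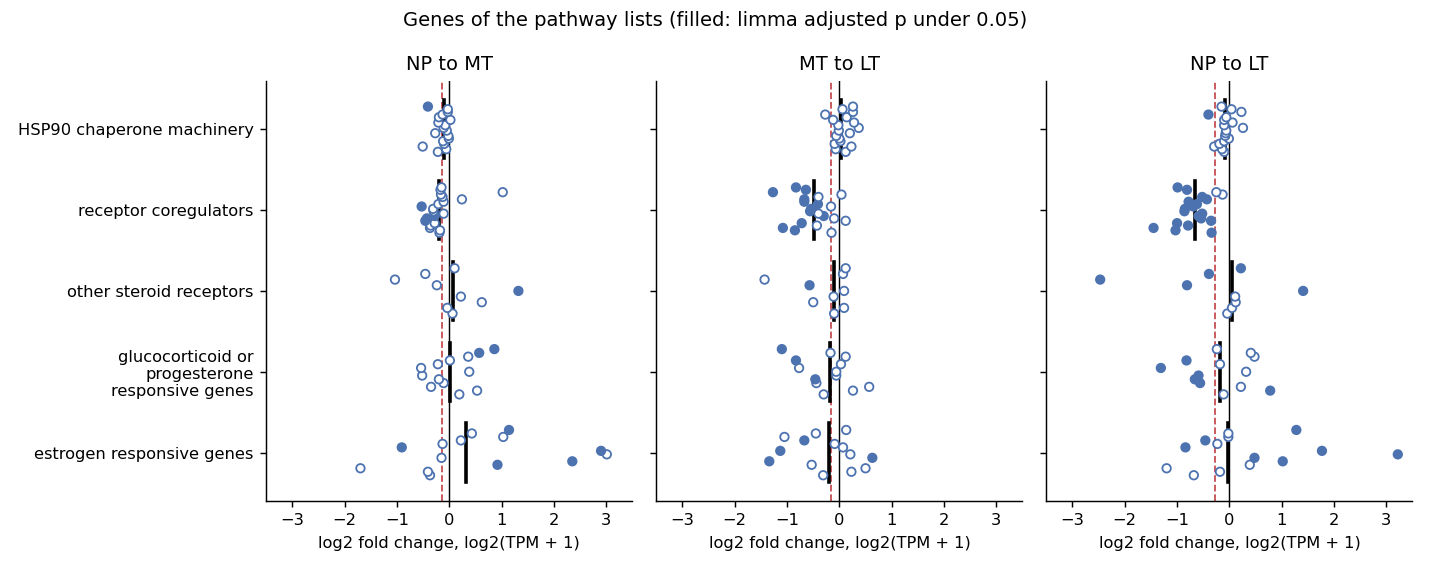
Log2 fold change of each tested gene in the 5 pathway lists for the 3 comparisons between stages (limma on log2(TPM + 1), log2 units). Each point is 1 gene, the black bar is the list's median and the dashed line the median of all tested genes. The coregulators lie lowest from NP to LT with a median of -0.66 against -0.28 for all genes, and the other 4 lists have medians above that line, from -0.18 to 0.05.

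Genes known to respond to glucocorticoids or progesterone were read from 13 tested genes. From NP to MT 2 rose and 0 fell, from MT to LT 0 rose and 3 fell, and from NP to LT 1 rose and 5 fell (with edgeR 3 and 0, 0 and 2, and 3 and 3). The 3 of 13 called lower from MT to LT are a share close to the 22.7% of all tested genes, and the 5 called lower from NP to LT a share under the 41.9% of all. Of all tested genes 6.27% were called higher from NP to MT and 11.2% from NP to LT. With edgeR 10.1% were called higher from NP to MT, 15.6% lower from MT to LT, and 23.6% higher and 25.8% lower from NP to LT. The genes that fell from MT to LT were ZBTB16, PER1 and FOXO1, and those that fell from NP to LT were PER1, KLF15, FOXO1, ERRFI1 and GLUL. Not given by edgeR were the calls of FOXO1 from MT to LT (adjusted p = 0.054) and of ERRFI1 and GLUL from NP to LT (adjusted p = 0.181 and 0.173). The FOXO1 call from MT to LT was also lost without MT replicate 2 (adjusted p = 0.078) or MT replicate 3 (adjusted p = 0.063). ZBTB16, a transcription factor that both hormones induce, had 15.2, 21.7 and 14.7 TPM in NP, 31.3, 35.7 and 28.4 TPM in MT, and 16.3, 10.4, 16.6 and 14.4 TPM in LT. Like PGR, it was higher in every MT animal than in any other. It rose by 0.86 on the log2 scale up to MT (SE 0.19, adjusted p = 0.0147) and fell by 1.10 after it (SE 0.18, adjusted p = 0.00362). The rise was lost without MT replicate 2 (adjusted p = 0.051). TSC22D3 (GILZ), a glucocorticoid target, had 155, 189 and 137 TPM in NP, 265, 253 and 198 TPM in MT, and 183, 184, 244 and 241 TPM in LT. It rose from NP to MT by 0.57 (adjusted p = 0.0422), a call lost without any of NP replicates 1 and 3, MT replicates 1 and 2 or LT replicate 2 (adjusted p from 0.0524 to 0.126). From NP to LT edgeR called it higher by 0.71 (adjusted p = 0.00856), which limma on TPM did not. PER1, a clock gene with a glucocorticoid response, had stage means of 40.7 ± 4.49 (SD, n = 3), 41.1 ± 5.12 (SD, n = 3) and 22.5 ± 1.28 TPM (SD, n = 4). It fell by 0.83 from MT to LT (SE 0.11, adjusted p = 0.00183). CEBPD moved the other way, from 88.8 ± 2.81 TPM in NP to 154 ± 14.9 TPM in LT, a rise of 0.78 (SE 0.17, adjusted p = 0.00418), and edgeR also called it higher from NP to MT, by 0.69 (adjusted p = 0.036).

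Genes known to respond to estrogen were read from 14 tested genes. From NP to MT 4 rose and 1 fell, from MT to LT 1 rose and 3 fell, and from NP to LT 5 rose and 2 fell (with edgeR 4 and 2, 1 and 2, and 6 and 2). Over all tested genes 6.27% were called higher from NP to MT and 11.2% from NP to LT, and 22.7% and 41.9% were called lower from MT to LT and from NP to LT. From NP to MT GREB1, MYB, XBP1 and GATA3 rose and PDZK1 fell, and from MT to LT IGF1 rose and GREB1, MYB and SLC39A6 fell. Over the whole span, NP to LT, GREB1, MYB, XBP1, IGF1 and LTF rose and PDZK1 and SLC39A6 fell, the latter not with edgeR (adjusted p = 0.241), which in turn called GATA3 higher by 0.70 (adjusted p = 0.00571). The rises of XBP1 and GATA3 from NP to MT were lost without MT replicate 3 (adjusted p = 0.0568 and 0.0562), and that of IGF1 from NP to LT without NP replicate 1 or 2 (adjusted p = 0.0632 and 0.0725). GREB1, an early estrogen target and coactivator of ESR1, had 24.1, 19.2 and 17.4 TPM in NP, 134, 95.5 and 94.2 TPM in MT, and 38.4, 37.4, 47.7 and 43.2 TPM in LT. The 3 stages were fully separate, with MT on top. GREB1 rose by 2.35 on the log2 scale between NP and MT (SE 0.17, adjusted p = 5.88e-05), fell by 1.34 from MT to LT (SE 0.15, adjusted p = 0.00182) and ended higher in LT than in NP by 1.02 (SE 0.15, adjusted p = 0.000645). All 3 calls held under the 19 alternatives. The stage with the lowest mean of GREB1, estrus, was the one with the highest mean of ESR1. MYB had 0.363, 1.93 and 1.58 TPM in NP, 13.9, 17.0 and 15.0 TPM in MT, and 8.93, 8.37, 4.97 and 4.47 TPM in LT. The 3 stages were separate here too, and MYB rose from NP to MT by 2.90 (SE 0.32, adjusted p = 0.000747). The fall of MYB from MT to LT was not called by edgeR (adjusted p = 0.0675), and was lost without MT replicate 2 or 3 or LT replicate 3 or 4 (adjusted p from 0.0517 to 0.0759). XBP1 rose from 371 ± 138 TPM (SD, n = 3) in NP to 866 ± 138 TPM (SD, n = 4) in LT (log2 fold change 1.28, SE 0.24, adjusted p = 0.00165). IGF1 rose after mid-term, from an MT mean of 269 ± 30.1 TPM (SD, n = 3) to an LT mean of 422 ± 78.4 TPM (SD, n = 4) (log2 fold change 0.63, adjusted p = 0.0134), a call lost without MT replicate 2 (adjusted p = 0.0594). LTF spread widely, from 58.1 to 1254 TPM in NP and from 1535 to 6885 TPM in LT, and rose by 3.22 from NP to LT (SE 0.94, adjusted p = 0.0161), or by 1.92 without NP replicate 1 (adjusted p = 0.0272).

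**Figure D5:**
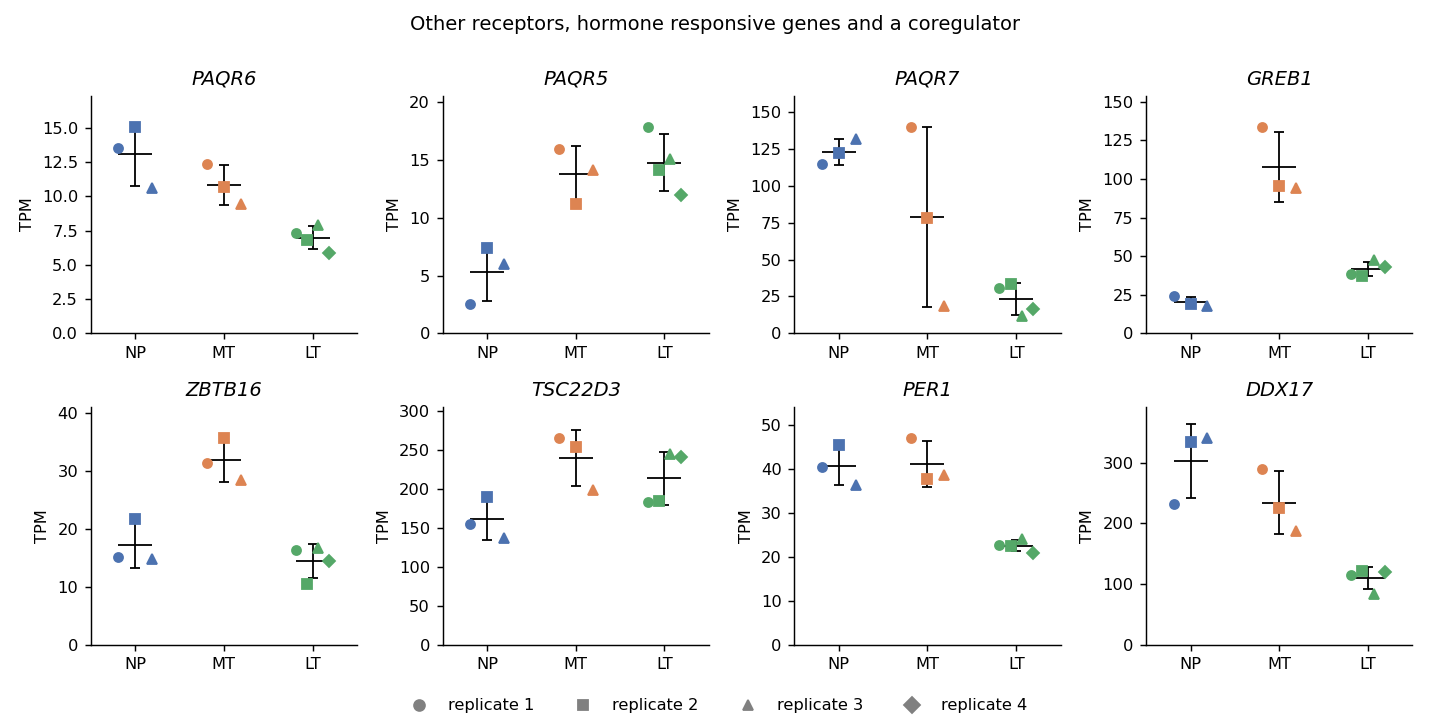
TPM of 8 genes of the receptor pathways (PAQR6, PAQR5, PAQR7, GREB1, ZBTB16, TSC22D3, PER1 and DDX17) in each animal at the NP, MT and LT stages (1 panel per gene, linear axis in TPM). Points are animals with the shape giving the replicate, and the bar with whiskers is the mean ± SD. GREB1 and ZBTB16 are highest in MT, PAQR7 spans 18.4 to 140.2 TPM among the MT animals, and PER1 and DDX17 are lowest in LT.

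Cell type markers moved with the stages as well. The summed TPM of 7 columnar epithelial markers was 954 to 1104 in NP, 3033 to 5176 in MT and 7404 to 9259 in LT. Of these 7, 5 rose and 1 fell from NP to MT, where 6.27% of all tested genes were called higher and 12.2% lower. EdgeR gave the same counts there, and 2 higher and 0 lower from MT to LT. On TPM 1 rose from MT to LT, AGR2, whose mean went from 2255 to 6718 TPM, while MUC5B was at 729.6 and 340 TPM and the median log2 fold change of the list was 0.04. That of 5 endothelial markers was 120.1 to 162 in NP, 86.7 to 129 in MT and 47.8 to 79.9 in LT, and of these 1 fell from NP to MT, 4 from MT to LT and 5 from NP to LT (with edgeR 1, 2 and 5), beside 12.2%, 22.7% and 41.9% of all tested genes (with edgeR 7.98%, 15.6% and 25.8%). Stage sums of 7 stromal markers overlapped, between 5426 and 10926 over all animals, and most of each sum was the collagen genes COL1A1 and COL1A2. Single stromal markers did move from MT to LT, where 1 was called higher and 2 lower (with edgeR 1 and 1). PDGFRA, at 55.1, 74.3 and 24.4 TPM in NP, MT and LT, fell by 1.59 on the log2 scale (adjusted p = 0.00187), PDGFRB fell by 0.56 (adjusted p = 0.0324, and 0.074 with edgeR), and LUM rose by 0.91 (adjusted p = 0.00761). The 9 leukocyte markers summed to 152 to 368 in NP, 166 to 194 in MT and 188 to 335 in LT. Of the 8 tested, 2 were called higher and 0 lower from MT to LT, by limma and by edgeR alike. Of all tested genes 6.73% were called higher there by limma and 13.4% by edgeR. Smooth muscle markers summed to 7713 to 21878 in NP, 10292 to 15997 in MT and 13701 to 24073 in LT. From MT to LT 1 of 8 was called higher and 0 lower (median log2 fold change 0.32). Squamous markers summed to 1053 to 3255 in NP, 192 to 1387 in MT and 1599 to 3189 in LT, mostly KRT14 (548 TPM in MT, 2237 in LT). Of 6, 1 was called higher and 0 lower from MT to LT (median 0.93), and 0 and 2 from NP to LT (median 0.38). IVL was at 53.3, 2.55 and 0.528 TPM in NP, MT and LT. EdgeR gave the same counts. Among all these markers SPRR3, of the squamous list, was the 1 with no read in LT. The part of these differences in the levels of the receptors was not tested.

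The transcripts whose log2(TPM + 1) ran most like ESR1 over the 10 animals were B3A2_CAVPO (Pearson r = 0.992), BBS9 (r = 0.99) and KIAA0753 (r = 0.989). For PGR they were C1QTNF3 (r = 0.954), SEMA4G (r = 0.934) and GK5 (r = 0.932). These correlations were the highest of all tested genes with a name, the animals share stage, library and scaling, and the values are given as a description only. C1QTNF3 was at 10.5 to 14.5 TPM in MT and at 2.98 to 6.86 TPM in the other animals.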

How the data were processed

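Per the labels and the study's methods, the authors aligned strand-specific single-end reads to the guinea pig genome cavPor3 with TopHat2, counted reads per gene of Ensembl release 69 with HTSeq, and deposited for each animal the read count and the TPM derived from it. Both were used as deposited. The 10 animals were grouped by stage label. Stages were compared with limma 3.58.1 (trend, R 4.3.3) on log2(TPM + 1) in 1 fit over all animals, with Benjamini-Hochberg adjustment over the 12645 genes whose stage mean reached 3 TPM at any stage. All tests were two-sided, and a call is an adjusted p under 0.05. Single genes and ratios were compared by exact permutation tests, which cannot go below 0.1 for 3 against 3 animals, 0.0286 for 3 against 4, and 0.000476 for the F statistic. Alternatives included edgeR 4.0.16 (quasi-likelihood, TMM) and DESeq2 1.42.0 on counts, other pseudocounts and filters, and each animal left out. The members and lists were chosen with earlier results of these data known. Besides the members, up to 4 genes per pathway list and comparison were eligible to be named, those with the largest change among called genes whose stages do not overlap, and the 3 named genes most correlated with ESR1 and with PGR. HSP90AA1, HSPA8, STIP1, PTGES3, PPID, ST13, PHB2, SERBP1, KLF15, GLUL, PDZK1, NCOA1, PELP1, NRIP1, CARM1 and the cell type markers were named outside this rule, after their values were seen. A gene of the list of further receptors is not reported here. No sequence is shown.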

Additional observations from a re-analysis of the deposited data

Results flagged for a closer look

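NR3C1 in LT replicate 3 was at 17.6 TPM, while the other LT animals lay between 16.0 and 16.2 TPM. This gap is large only beside the very narrow spread of the other LT animals, and the value stays below the NP and MT animals, which lay at 22.4 TPM and above. It came from a search of 12 groups of 4 animals with Dixon's test at the 95% level, where chance alone is known to mark an occasional group.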

How the results depend on the processing

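Each alternative changed 1 choice, except that edgeR and DESeq2 differ from limma in input, scaling and model together. Changes below are log2 fold changes. The members called from MT to LT numbered 5 in a fit of the 2 stages alone, with ESR1 and NR3C2 added. In such fits 4909 of all 12645 genes were called from MT to LT, and 1113 from NP to MT. Same-numbered animals of different stages shared only a number (correlation of their deviations from -0.287 to 0.254), and with the replicate number as a block 1693 genes were called from MT to LT, and PGRMC1 from MT to LT (adjusted p = 0.0532) and PGRMC2 from NP to LT (adjusted p = 0.0959) were lost. The block also ended the calls of UNC45A, KDM1A, MED1, ZBTB16, TSC22D3 and PDZK1 from NP to MT (adjusted p from 0.0538 to 0.11), of MED1, PPARGC1A, PAQR6, FOXO1, MYB and PDGFRB from MT to LT (0.0519 to 0.0951), and of ST13, PAQR8, SERBP1, KLF15, ERRFI1 and GLUL from NP to LT (0.0523 to 0.115). LT replicate 4 is alone in its number, so that this fit in effect leaves it out. Leaving out 1 animal at a time, the genes called were 1100 (without MT replicate 3) to 4174 (without NP replicate 1) from NP to MT and 1946 (without MT replicate 2) to 5323 (without NP replicate 1) from MT to LT. Members called were 2 to 5 from MT to LT (5 without NP replicate 1) and 3 (without NP replicate 3 or LT replicate 3) to 6 (without NP replicate 1) from NP to LT, where 5304 (without NP replicate 2) to 7726 (without NP replicate 1) genes were called. The F test of the PGR to ESR1 ratio ranged from 0.00794 to 0.0536. Directions of changes that were not called turned for a few genes. From NP to MT, FKBP4 was at 0.12 with median-ratio scaling, 0.11 with edgeR and 0.12 with DESeq2. It was at 0.10, 0.07, 0.021 and 0.012 without NP replicates 2 and 3 and MT replicates 2 and 3. The fits with 1 animal left out ranged from -0.18 to 0.10. In such fits NR3C2 was at -0.26 without NP replicate 1 (range up to 0.46), and PGRMC1 at -0.10 without MT replicate 2 (up to 0.16). PER1 was at -0.06 and -0.09 without NP replicate 3 and MT replicate 1 (up to 0.09), and ERRFI1 at 0.009 with median-ratio scaling and at 0.07 and 0.002 without NP replicate 1 and MT replicate 1 (down to -0.24). From MT to LT, the values with median-ratio scaling, edgeR and DESeq2 were 0.06, 0.07 and 0.07 for KDM1A and 0.003, 0.012 and 0.012 for TSC22D3, and NCOA4 was at 0.004 with median-ratio scaling. PAQR5 was at -0.036 without MT replicate 2 (up to 0.20), PAQR8 at -0.06 without MT replicate 1 (up to 0.17), and LTF at -0.14 and -0.12 without LT replicates 1 and 2 (up to 0.58). From NP to LT, the same scalings gave 0.14, 0.12 and 0.12 for UNC45A and 0.039, 0.048 and 0.05 for ZBTB16. FKBP4 was at -0.07 without NP replicate 1 (up to 0.21 with another animal left out). The cause of these turns was not tested. Each stage rests on 3 or 4 animals, and a difference that missed the threshold at this size is not shown to be absent.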
